A study of Mus musculus with 80 samples.

Results

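DNA methylation of mouse embryonic stem cells (ESCs) was read by bisulfite sequencing of immunoprecipitated chromatin (ChIP-BS), and a small set of positions collected far more reads than the rest of the genome. These pile-up positions were defined as autosomal cytosines with more than 20 methylation calls in each of the 4 Input libraries, where 1 call is 1 read that scores the cytosine as methylated or unmethylated. The rule selected 1461 of 24815039 autosomal positions with a call in any ChIP-BS library, and the remaining 24813578 positions served for comparison. Members were thus selected on read depth in the Input alone, and that depth is described here without a test.

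All ChIP-BS cells were wild-type E14 ESCs, grown either in serum with LIF or in 2i, a serum-free medium with LIF, the MEK inhibitor PD0325901 and the GSK3 inhibitor CHIR99021. The labels give no time in 2i for ChIP-BS, and the study describes these cells as long-term 2i cultures, whereas the RRBS samples were taken at set times up to 168 h, so shares kept in the 2 assays refer to different times. In each medium DNA was taken from chromatin bound by an antibody to dimethylated lysine 9 of histone H3 (H3K9me2) and from the unselected Input, with 2 libraries each. The sources used here do not say that replicates came from separate cultures, so p-values describe these libraries only, whose spread may be technical. Reduced representation bisulfite sequencing (RRBS), which reads CpG-rich fragments, gave a second readout that the rule did not use. It covered E14, UHRF1 WT and UHRF1 KO ESCs, and TET WT and TET TKO ESCs, which lack the Tet genes, each in serum and at several times in 2i. The study describes the Tet deletion as constitutive and the Uhrf1 deletion as inducible, with tamoxifen given shortly before the experiment. The UHRF1 KO serum level may thus not be a steady level.

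ESCs in serum carry a highly methylated genome, and transfer to 2i leads to a broad loss of methylation. UHRF1 brings DNMT1, which maintains methylation, to freshly replicated DNA, TET proteins oxidise methylated cytosine, and H3K9me2 is a mark of silent chromatin to which UHRF1 can bind. Mouse chromosomes have their centromere at one end, next to long arrays of tandem satellite repeats that are largely missing from genome assemblies. Reads from repeats with many near-identical copies can be placed at the few copies an assembly holds. Which members arise in this way was not tested, because no sequence or repeat annotation of the build used by the files (NCBIM37) was at hand, and coordinates below are given on that build without a repeat or gene annotation.

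Members within 1000 bp of each other were joined into 252 clusters. Of these, 130 held 1 position, 59 held 2 and 63 held 3 or more, with up to 573 positions in a cluster. The lowest of the 4 Input depths had a median of 62 calls over the members and reached 52377 calls. Members made up 0.00589% of the autosomal positions but held 10.7% to 12% of the autosomal calls in the Input libraries, which totalled 16714950 to 19310884 calls. In the bound libraries, with 19279889 to 24326272 autosomal calls, the share was 7.25% to 8.88%.

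Calls were concentrated on few chromosomes. Chromosome 9 held 774 members (53.0%), chromosome 8 held 169 (11.6%) and chromosome 2 held 123 (8.42%), and chromosome 19 was the one autosome without a member. Chromosomes 2 and 9 together took 96.8% of the Input calls at members. Positions near the centromeric end were common, since 843 members (57.7%) lay within 200 kb of the first called position of their chromosome, against 0.147% of the other positions. On chromosome 9 this applied to 754 of 774 members and on chromosome 11 to 66 of 67, whereas on chromosome 8 it applied to 0 of 169 and on chromosome 2 to 0 of 123.

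8 clusters with more than 20000 Input calls each held 914 positions and 98.7% of all Input calls at members. This limit was set after the depths were seen. The deepest was chr2:98506419-98507483, with 60 positions and 3617013 Input calls. It was followed by chr9:3006306-3036079 with 573 positions and 1875907 Input calls, chr9:3000032-3004825 with 157 positions and 1196896, and chr2:98502421-98505350 with 62 positions and 623879. The others were chr9:35112827-35113168 (19 positions), chr12:3109883-3110118 (12), chr6:103599050-103599282 (7) and chr9:3037205-3038257 (24). 4 of the 8 lay within 200 kb of the first called position of their chromosome.

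The label of these positions as repeat-like could be checked only by their spacing. In chr9:3006306-3036079, 51.8% of the 573 positions had another member exactly 234 bp away, against a median of 1.40% over all distances from 150 to 350 bp. The next share was 38.7%, at 233 bp. In chr9:3000032-3004825, 63.7% of the 157 positions had such a partner at 234 bp and 48.4% at 233 bp. The deepest cluster on chromosome 2 showed 2 equal peaks, with 55.0% of its 60 positions having a partner at 234 bp and the same share at 251 bp. The neighbouring cluster chr2:98502421-98505350 did not share this spacing, since 9.68% of its positions had a partner at 234 bp and its highest share was 19.4% at 191 bp. A regular spacing was also not seen in chr8:19701539-20037477, the stretch with the most clusters. There at most 4.91% of 163 positions had a partner at any one distance from 150 to 350 bp. The median over these distances was 0 pairs, and so few pairs cannot show that a regular spacing is absent. Of the distances scanned, 234 bp was thus the most frequent, or shared that rank, in 3 of the 5 sets examined, and the spacing of the other clusters was not examined.

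**Figure D1:**
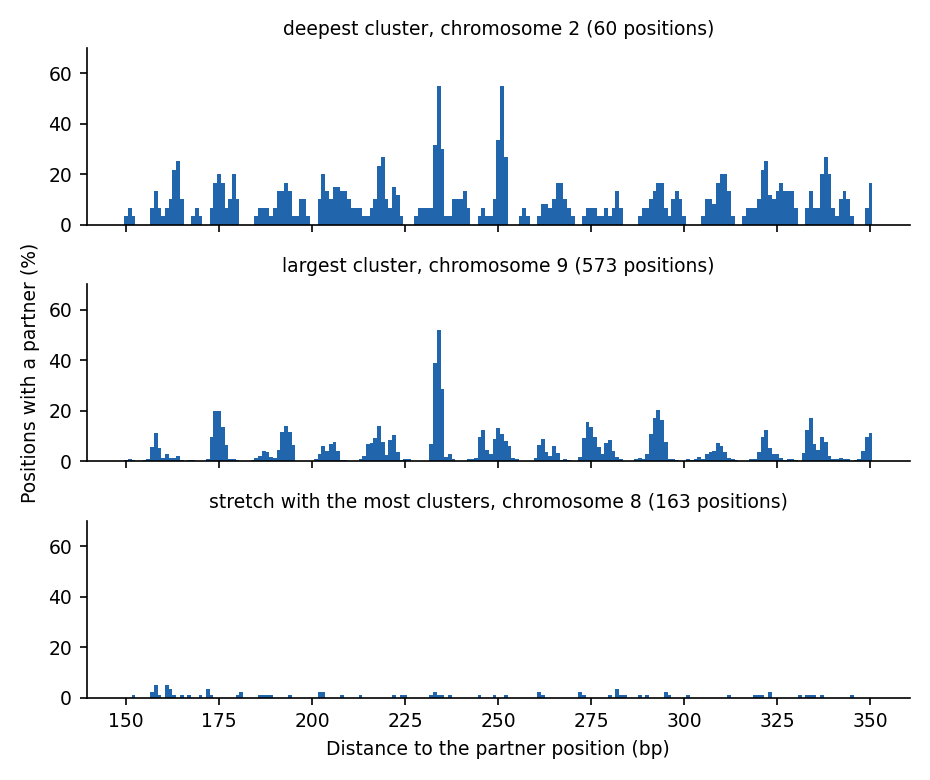
Share of pile-up positions (y axis, %) that have another pile-up position at exactly the distance on the x axis (150 to 350 bp), for the deepest cluster on chromosome 2, the largest cluster on chromosome 9 and the chromosome 8 stretch with the most clusters. Shares on chromosome 9 are highest at 234 bp with 51.8% of positions and at the adjoining 233 bp with 38.7%, 234 and 251 bp stand out on chromosome 2 with 55.0% each, and no distance exceeds 4.91% on chromosome 8.

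A further 348 pairs of members were directly adjacent, as the cytosines on the opposite strands of a CpG are, and these made up 47.6% of all members. 336 of the pairs lay in the 8 deepest clusters. There the deeper strand had a median of 8.79 times the calls of the shallower strand, against 2.00 times in the other clusters. Methylation differed between strands by a median absolute difference of 5.51 percentage points in serum Input and 8.37 points in 2i Input over the 348 pairs.

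Methylation was compared first, with calls pooled over all members in each library. In serum Input the members held 80.6% and 80.2% methylated calls in replicates 1 and 2, and in serum bound DNA 81.7% and 81.8%. In 2i Input they held 68.4% and 68.8%, and in 2i bound DNA 69.1% and 69.7%. The other positions held 74.2% and 73.0% in serum Input, 81.2% in both serum bound libraries, 33.6% in both 2i Input libraries, and 40.3% and 40.1% in 2i bound DNA. Members were thus above the other positions in 8 of 8 libraries, by as little as 0.493 points in a serum bound library and as much as 35.2 points in a 2i Input library.

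The mean difference over the 8 libraries was 17.9 points (exact two-sided sign permutation, p = 0.00781, the smallest possible, adjusted p = 0.0208 over 8 tests). A p of this size records that the sign was the same in all 8 libraries, which span both media and both fractions. It does not measure the spread between replicates. The mean of 17.9 points describes the deepest clusters rather than the members as a whole. With the 8 deepest clusters left out, the remaining 547 members held 60.2% ± 1.02 in serum Input and 26.6% ± 0.246 in 2i Input (SD, n = 2). The mean difference from the other positions was then -9.82 points, the opposite direction (exact permutation, p = 0.00781). This pool includes chr1:24619332-24620149, with 18 positions, 8106 Input calls and 1.03% methylation in serum Input. With equal weight per position the 547 members held 63.6% in serum Input and 28.2% in 2i Input, against 73.1% and 33.4% at the other positions. Over all members, with each position counted equally, the difference was 7.25 points (exact permutation, p = 0.102), and the median over clusters minus that over 10-kb windows was -6.23 points (exact permutation, p = 0.00781).

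**Figure D2:**
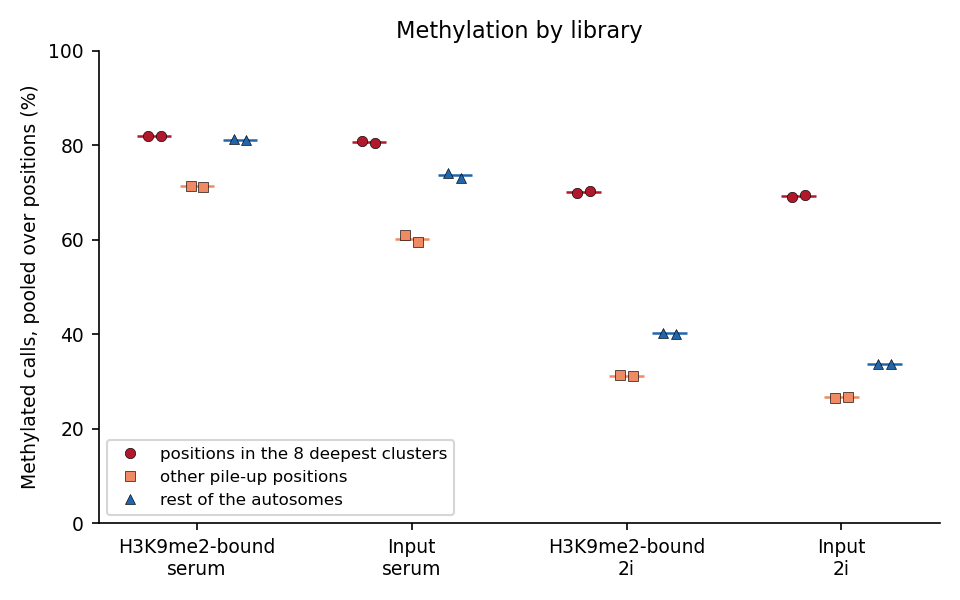
Percent of methylated calls, pooled over positions (y axis), in each of the 8 ChIP-BS libraries, with points for the 2 libraries of a group and a bar for their mean, for positions in the 8 deepest clusters, the other pile-up positions and the rest of the autosomes. In 2i Input the deepest clusters sit at 69.2% (mean), the other pile-up positions at 26.6% and the rest of the autosomes at 33.6%.

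Between serum and 2i the difference in methylation was smaller at members than in the rest of the genome. At members 2i minus serum was -11.8 points in Input and -12.3 points in bound DNA, and both 2i libraries lay below both serum libraries in each fraction. At the other positions it was -39.98 points in Input and -41.01 points in bound DNA. Expressed as the 2i level in percent of the serum level, members kept 85.3% in Input and 84.9% in bound DNA, whereas the other positions kept 45.7% and 49.5%. The loss differed between members and others by a mean of 28.4 points, and the change at members itself averaged -12.05 points (exact two-sided permutation of medium within fraction, p = 0.0556 for each, adjusted p = 0.0635). This is the smallest p that 36 arrangements allow, so these comparisons could not pass 0.05. The change at members was -21.4 points with equal weight per position, -43.4 points as the median over clusters and -36.8 points in calls pooled without the 8 deepest clusters.

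Again the 8 deepest clusters set the pooled value. They kept 85.8% of the serum level in Input, the 18 clusters with over 1000 and up to 20000 Input calls kept 44.8%, and the 226 clusters with up to 1000 Input calls kept 43.7%. Without the 8 deepest clusters the loss at members differed from that at other positions by 3.67 points in place of 28.4. With each cluster counted equally, by medians over clusters and windows, the sign turned and the difference was -0.804 points (exact permutation, p = 0.111).

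Kept methylation in Input was higher in deeper classes of positions above 10 calls, which is given as a description. Positions whose lowest Input depth was 1 to 5 calls kept 45.6% of their serum level in Input and those with 6 to 10 calls 45.7%, all of them outside the rule. The share was 55.6% at 11 to 20 calls, 61.4% at 21 to 50, 74.6% at 51 to 100, 84.7% above 100 and up to 1000, and 85.8% above 1000 calls. In bound DNA the share was 53.7% at 11 to 20 calls, 55.4% at 21 to 50, 56.5% at 51 to 100 and 82.3% above 100 and up to 1000. Outside the 8 deepest clusters the shares of both cluster classes, given above, were below that of the other positions. The 265 members just inside it, with 21 to 25 calls, held 67.5% ± 0.512 in serum Input and 39.2% ± 1.03 in 2i Input, and the 459 positions just outside it, with 16 to 20 calls, held 71.0% ± 0.0949 and 41.1% ± 0.580 (SD, n = 2).

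Single clusters were then placed among 175514 windows of 10 kb that, with the members taken out, had at least 20 calls in every library. Windows had a median of 76.4% in serum Input and 33.7% in 2i Input and kept a median of 44.8%, with 90% of them between 26.8% and 66.5%. The 8 deepest clusters held 73.7% to 82.7% in serum Input, above 35.98% to 84.3% of the windows, and 61.3% to 71.9% in 2i Input. They kept 80.3% to 87.5%, more than 99.4% to 99.8% of the windows did. Over the 245 clusters with at least 10% methylation in serum Input the median kept was 41.5%, and 20 of them kept 80% or more.

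**Figure D3:**
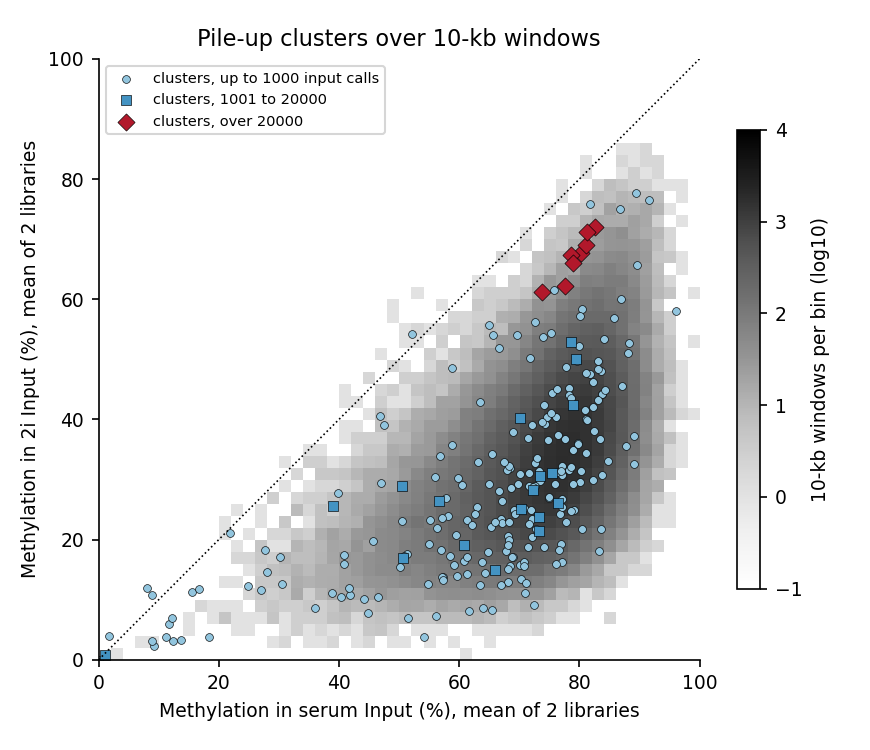
Each pile-up cluster by its methylation in serum Input (x axis, %) and 2i Input (y axis, %), means of 2 libraries, drawn over the density of 175514 10-kb windows with the members taken out (grey, log10 of windows per 2-point bin), with marker and colour by the number of Input calls and the dotted line marking equal values. The 8 clusters with over 20000 calls group at 73.7% to 82.7% in serum and 61.3% to 71.9% in 2i, at the upper edge of the windows, and most other clusters lie within the cloud.

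Among clusters of 3 or more positions, the highest kept shares were those of chr12:3109883-3110118 (87.5%), chr2:98506419-98507483 (87.0%) and chr9:3000032-3004825 (85.7%). In chr2:98506419-98507483 serum Input held 82.8% and 82.5%, and 2i Input 71.7% and 72.1%. Both 2i libraries were thus below both serum libraries in the cluster that held the most reads. In chr9:3000032-3004825 serum Input held 78.7% and 78.6%, and 2i Input 67.2% and 67.6%.

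Among the same clusters of 3 or more positions, the lowest kept shares were those of chr13:12988525-12988625 (19.5%), chr1:85274598-85274700 (22.5%) and chr14:4858578-4858670 (22.6%). In chr13:12988525-12988625 serum Input held 63.4% and 63.5% and 2i Input 11.3% and 13.4%, on 82 to 106 calls a library. In chr14:4858578-4858670 serum Input held 70.9% and 69.2% and 2i Input 17.8% and 13.8%. All 3 kept less than 95% of the windows did, while meeting the same depth rule as the deepest clusters.

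The largest group of shallower clusters was the stretch chr8:19701539-20037477, with 43 clusters and 163 positions. Its clusters had a median of 72.2% in serum Input (range 41.9% to 89.6%) and 26.8% in 2i Input (10.8% to 65.8%), and kept a median of 35.9%. Its deepest cluster, chr8:19943858-19948782, fell from 73.5% ± 0.108 in serum Input to 30.5% in 2i Input. Stretches on chromosome 1 (chr1:84985416-85314299, 18 clusters, median kept 31.7%), chromosome 4 (chr4:146591708-146883666, 16 clusters, 44.2%) and chromosome 11 (chr11:3001407-3099928, 14 clusters, 46.3%) had medians within the middle 90% of the windows. The chromosome 11 stretch lay within 200 kb of the first called position, as did 3 chromosome 9 clusters that kept 83.5% to 85.7%.

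A quasi-binomial model with moderated dispersion was fitted to all clusters and windows with at least 20 calls in every library, 175697 features in all. 183 of the 252 clusters, with 1360 positions, met this minimum. From serum to 2i, 165 of the 183 clusters fell in Input and 167 in bound DNA, with none rising (Benjamini-Hochberg adjusted p under 0.05). Of all features 99.2% were called lower in Input and 99.6% in bound DNA, with 0% and 0.000569% called higher, so the clusters' shares were not above the background. For the deepest cluster the adjusted p was 8.98e-90 in Input, for a fall of 10.7 points. The p-values of this model rest mostly on read counts and on a dispersion shared over features (prior of 142 degrees of freedom). They rest little on the spread between the libraries of a group. Of the 18 clusters not called in Input, 11 had under 20% methylation in serum Input and 5 had 40% or more, among them chr5:15186752-15186752 with 81.7% in serum and 75.8% in 2i.

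The next comparison asked whether DNA bound to H3K9me2 was more methylated than the Input at members. It was higher by 1.34 points in serum and by 0.803 points in 2i, and in each medium both bound libraries lay above both Inputs. At the other positions bound DNA was higher by 7.60 points in serum and by 6.57 points in 2i. The mean difference at members was 1.07 points and its shortfall against the other positions was 6.01 points, the latter printed as -6.01 when the others are subtracted (exact two-sided permutation of fraction within medium, p = 0.0556 for each, adjusted p = 0.0635, the smallest possible). Against other positions with 5 or more calls in each of the 8 libraries the contrast was -3.27 points. The difference at members was 2.20 points with equal weight per position and 5.13 points as the median over clusters, and with those medians the contrast with windows was -0.567 points (exact permutation, p = 0.278). Without the 8 deepest clusters, pooled bound DNA was higher at members by 11.1 points in serum and 4.65 points in 2i, and the contrast of pooled calls with the other positions was 0.786 points, the opposite sign (exact permutation, p = 0.556). This pool includes chr1:24619332-24620149, with 1688 to 2246 Input calls a library at about 1% methylation and 12 to 43 bound calls. The sign did not turn with equal weight per position. In serum these members then held 70.8% in bound DNA and 63.6% in Input, against 81.1% and 73.1% at the other positions. In 2i they held 32.8% and 28.2%, against 40.5% and 33.4%. The median cluster difference in serum was 4.87 points for the 18 clusters with over 1000 and up to 20000 Input calls and 5.78 points for the 226 shallower ones. With members of more than 1000 calls in any Input left out, the difference in pooled calls at members was -1.37 points (exact permutation, p = 0.333). In pooled calls, bound minus Input in 2i was -1.78 points at members with 21 to 50 calls in the lowest Input and -12.6 points at those with 51 to 100. By the mean of positions, bound DNA in 2i held 43.6% and Input 40.8% in the first of these classes, and 54.0% and 53.4% in the other.

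By cluster, 7 of 183 were called higher in bound DNA than in Input in serum, and none lower. Of all features 2.78% were called in this comparison (2.77% higher and 0.00911% lower), so 7 clusters were close to the background share. 4 of the 7 were among the 8 deepest clusters and had differences under 2 points. These were chr2:98506419-98507483 (1.03 points, adjusted p = 0.000154), chr9:3000032-3004825 (1.55 points), chr2:98502421-98505350 (1.78 points) and chr9:35112827-35113168 (1.58 points). The count fell to 3 without replicate 1 of bound serum, to 1 without its replicate 2 and to 3 without replicate 2 of Input serum. Limma on log2 ratios of methylated to unmethylated calls called 0 clusters (14 at an unadjusted p under 0.05).

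The largest differences among the called clusters in serum were at chr15:74916119-74917197, chr8:19737596-19738274 and chr8:19943858-19948782. At chr8:19737596-19738274 the bound libraries held 79.9% and 79.5% and the Inputs 74.8% and 59.6%. The groups did not overlap, but the Inputs differed from each other by more than the closer of them differed from the bound libraries (difference of means 12.5 points, adjusted p = 0.0235 by the quasi-binomial model). At chr8:19943858-19948782 bound DNA was higher by 4.88 points (adjusted p = 0.0182).

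In 2i, 3 of 183 clusters were called higher in bound DNA, and none lower, against 0.804% of all features (0.781% higher and 0.0233% lower). The count was 1 without either replicate of bound serum and 0 without replicate 2 of bound 2i or without either replicate of Input 2i (21 to 25 clusters at an unadjusted p under 0.05 in those 3 fits). It was 1 with a replicate block. Among the 3 called clusters the largest difference was at chr13:12988525-12988625, with 30.3% and 35.4% in the bound libraries and 11.3% and 13.4% in the Inputs (20.5 points, adjusted p = 0.00875 by the quasi-binomial model, 0.176 by limma). The other clusters were chr9:35112827-35113168 (1.56 points) and chr2:98506419-98507483 (0.944 points).

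The cluster chr15:74916119-74917197, with 8 positions, was the only one of 183 called as a cluster where the difference between bound DNA and Input itself changed from serum to 2i, against 0.00455% of all features. In serum the bound libraries held 54.5% and 53.0% and the Inputs 40.6% and 37.3%, and in 2i the bound libraries held 20.5% and 23.4% and the Inputs 25.03% and 26.2%. Bound DNA was thus higher by 14.8 points in serum and differed by -3.63 points in 2i (adjusted p of the change 0.0390 by the quasi-binomial model, 0.842 by limma). The call was lost, with 0 clusters called and 7 to 13 at an unadjusted p under 0.05, without any 1 of these 6 libraries: either replicate of bound serum, replicate 1 of bound 2i, replicate 2 of Input serum and either replicate of Input 2i. The number of calls moved at the same time. The bound libraries held 418 and 536 calls in serum and 4126 and 3132 in 2i, while the Inputs held 704 and 719 in serum and 723 and 623 in 2i. Per 1000000 autosomal calls this was a mean of 21 in serum and 166 in 2i for bound DNA. The part of this gain of reads in the methylation difference was not tested. Of the 252 clusters it was the one whose bound calls grew by a factor of 3 or more from serum to 2i, and in 8 clusters they shrank by such a factor. The share of 10-kb windows with changes of this size was not computed.

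Read numbers at some of the deepest clusters varied less between libraries than the autosomal totals did. At chr2:98506419-98507483 the 8 libraries held 834245 to 920747 calls, a ratio of 1.10 between the highest and the lowest, whereas their autosomal totals differed by a ratio of 1.46. The coefficient of variation was 3.5% for this cluster, 2.74% for chr9:35112827-35113168 and 14.6% for the autosomal totals. For chr9:3006306-3036079 it was 15.9%, above that of the totals. Relative to autosomal calls, bound libraries held 0.590 to 0.762 times the Input share at the 8 deepest clusters in serum and 0.601 to 0.793 times in 2i. Input depth, on which the rule chose members, is the denominator here, so such ratios are a description and not a measure of H3K9me2. Where calls varied little between libraries, the ratio also reflects the autosomal totals. Over the 43 clusters of the chromosome 8 stretch the median ratio was 0.997 in serum and 0.819 in 2i. Whether removal of duplicate reads, or the way reads with several matches were placed, shaped these numbers was not tested, since neither is stated in the sources used here.

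Within chr2:98506419-98507483 the single positions did not lose methylation evenly. 42 of its 60 positions had more than 1000 calls in each of the 8 libraries. Over these the share kept in Input ranged from 65.8% to 94.6%, with a median of 89.2%. Of these 42 positions 6 kept under 80%, and they included both strands of a pair at 98507013 and 98507014 and of another at 98507264 and 98507265. Shallower positions are not in this count. Some of them also kept under 80%, such as 98506430 (75.7%) and 98506671 (75.3%), and others kept more, such as 98506420 (89.9%). At 98507013 Input fell from 78.8% ± 0.532 in serum to 53.5% in 2i, and bound DNA from 79.2% to 54.7%. At 98507264 Input fell from 78.6% to 51.7%, and bound DNA from 78.0% to 52.9%. A neighbour, 98506997, fell from 85.4% to 78.1% in Input. 98506779, which kept 78.5%, lay 234 bp before 98507013, a distance that recurs in the cluster. The remaining 36 positions kept 83.7% to 94.6%. These positions were picked for their values, so no test is given.

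**Figure D4:**
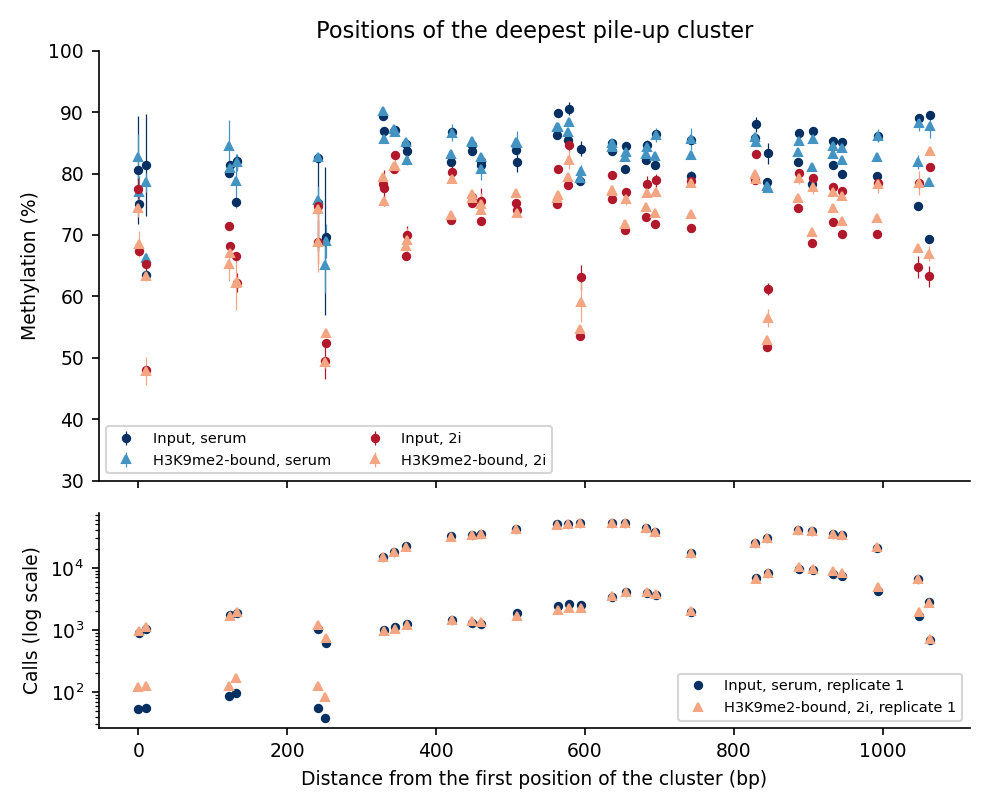
Positions of the deepest cluster by distance from its first position (x axis, bp), with methylation (upper panel, %, mean of 2 libraries, bars are SD) in Input and bound DNA of both media, and calls per position on a log scale in 1 serum Input and 1 bound 2i library (lower panel). Of the 42 positions with over 1000 calls in every library, 36 keep 83.7% or more, while pairs at 594 and 595 bp and at 845 and 846 bp lie between 51.7% and 63.1% in 2i Input, and the shallow positions at the left have wide error bars.

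A different pattern was found at chr1:24619332-24620149, with 18 positions and 8106 Input calls. Its Input reads were almost unmethylated, with 1.12% and 0.935% in serum and 0.887% and 0.592% in 2i, on 1688 to 2246 calls a library. The bound libraries held only 12 to 43 calls there, too few for the test, and of these few calls a mean of 60.4% ± 20.7 was methylated in serum and 17.7% ± 21 in 2i (SD, n = 2). Per 1000000 autosomal calls this was a mean of 121 in serum Input and 1.01 in serum bound DNA. The mitochondrial genome, which is not wrapped in nucleosomes, was also almost unmethylated in the same Input files. It had 2526 to 2865 calls per 1000000 autosomal calls and 0.424% to 0.490% methylation in the Inputs, and 12.2 to 28.1 on the same scale in the bound libraries. Whether reads of mitochondrial DNA lie at this cluster was not tested. 6 other clusters had under 10% methylation in serum Input.

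RRBS gave an independent readout at few members. In the E14 set 242 members had a call in any sample, and 15 had at least 5 calls in all 12 samples, 14 of them in the deepest clusters on chromosomes 2 and 9 and 1 in chr15:74916119-74917197. The mean over the 15 positions was 79.3% ± 0.0693 in serum (SD, n = 2 at each time). It was 79.4% ± 1.47 after 24 h of 2i and 79.9% ± 0.404 after 48 h, then 74.7% ± 1.74 after 72 h, 75.9% ± 0.0115 after 96 h and 69.97% ± 0.925 after 168 h. By this mean members kept 88.2% of the serum level at 168 h. Pooled calls over the same positions gave lower levels late, with 82.6% in both serum samples and 68.5% and 57.7% in the samples at 168 h. The mean up to 48 h includes 1 position in chr9:35112827-35113168 that went from 67.0% on 7 to 8 calls in serum to 93.9% at 24 h. The 654507 other positions with the same coverage started at 17.7% ± 0.240 and kept 47.0% at 168 h. Across the 12 samples the level at members fell with time (Pearson r = -0.911, permutation p = 0.000160, adjusted p = 0.000640), with Spearman's rho at -0.792 (permutation p = 0.00363). Leaving out the pair of samples farthest from the median time gave r = -0.735 (permutation p = 0.0183) and rho = -0.640 (permutation p = 0.0555).

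Methylation at members was lower in UHRF1 KO than in UHRF1 WT. 10 members had at least 5 calls in all 23 usable samples of the UHRF1 set, 9 of them in the deepest clusters. In UHRF1 WT the level was 85.04% in the 1 usable serum sample, 66.6% ± 1.06 after 96 h and 58.4% ± 1.92 after 168 h. UHRF1 KO held 73.3% ± 4.52 in serum and 59.3% ± 2.45 after 24 h, then 29.7% ± 1.70 after 96 h and 32.7% ± 1.75 after 168 h (SD, n = 2). All KO samples lay below all WT samples of the same time. The mean difference was -26.2 points (exact two-sided permutation of genotype within time, p = 4.29e-05, the smallest possible, adjusted p = 0.000343), and ranged from -11.7 points in serum to -36.9 points at 96 h. KO cells kept 44.7% of their serum level at 168 h and WT cells 68.6%. The 4331 other positions with this coverage were also lower in KO, by a mean of -2.81 points (exact permutation, p = 4.29e-05, the smallest possible) from levels of 12.8% in KO serum and 14.3% in WT serum. There KO kept 65.9% and WT 88.3% at 48 h, 46.2% and 69.6% at 96 h, and 55.2% and 53.0% at 168 h. At members KO kept 67.9% and WT 89.4% at 48 h, and 40.5% and 78.3% at 96 h. Whether the share kept differed between genotypes, or the effect between members and other positions, was not tested.

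Within the UHRF1 set each of the 3 deep clusters covered was lower in KO, in serum and at 96 h. At chr2:98506419-98507483, with 3 positions, WT went from 92.6% in serum to 80.5% at 96 h and KO from 83.3% to 35.96%. At chr2:98502421-98505350, with 5 positions, WT went from 81.4% to 66.6% and KO from 75.8% to 31.1%. At chr9:3006306-3036079, with 1 position, WT went from 92.7% to 64.8% and KO from 64.5% to 21.6%. All 3 were also lower in KO at 168 h. The tenth member, in chr15:74916119-74917197, went from 72.6% in WT serum to 26.6% at 96 h and 5.64% at 168 h, and in KO from 39.4% to 11.7% and 20.8%, so that KO was above WT at 168 h. These values are descriptions, with 1 or 2 samples a time.

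The mean difference between TET TKO and TET WT over the times did not pass the test at members. 18 members had at least 5 calls in all 15 samples of the TET set, 17 of them in the deepest clusters. TET WT held 66.9% ± 0.0768 in serum and 65.4% ± 0.635 after 48 h, then 62.6% ± 0.286 after 96 h and 55.9% in the 1 sample taken after 168 h. TET TKO held 71.4% ± 3.91 in serum and 67.2% ± 0.652 after 48 h, then 58.3% ± 1.93 after 96 h and 48.6% ± 2.35 after 168 h (SD, n = 2). The mean difference was -1.33 points (exact two-sided permutation of genotype within time, p = 0.502, adjusted p = 0.502). TKO minus WT was 4.55 points in serum and -7.32 points at 168 h. By the mean of positions, all TKO samples lay above all WT samples in serum and at 48 h, and below them at 96 h and 168 h. A mean over times with opposite signs cannot show that the genotypes were alike at each time. The direction of the mean also moved with the averaging, since pooled calls gave 2.61 points (exact permutation, p = 0.0139). Leaving out replicate 1 gave 1.18 points. This setting also removed the 168 h comparison, where TET WT had replicate 1 only, so 3 times remained in place of 4. At members TKO kept 68.03% and WT 83.6% at 168 h, and at the other positions 55.8% and 48.6%, with these shares not tested. At the 205265 other positions TKO was higher by 3.65 points (exact permutation, p = 0.00154, the smallest possible).

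**Figure D5:**
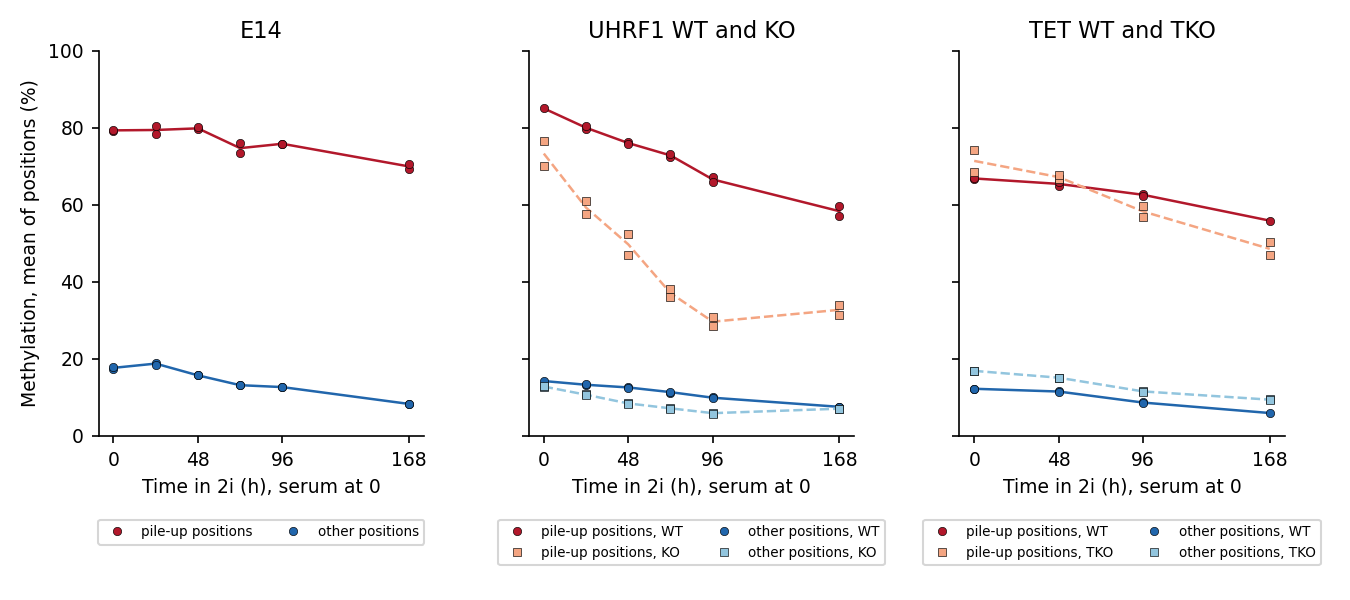
Methylation by RRBS (y axis, %, mean over positions) against time in 2i (x axis, h, serum at 0) in the E14, UHRF1 and TET sets, with a point for each sample and lines through the group means, for pile-up positions (15, 10 and 18 positions) and other positions. E14 pile-up positions go from 79.3% to 69.97%, UHRF1 KO pile-up positions drop from 73.3% to 32.7% while UHRF1 WT goes from 85.04% to 58.4%, and TET TKO lies above TET WT in serum (71.4% and 66.9%) and below it at 168 h (48.6% and 55.9%).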

How the data were processed

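The ChIP-BS and RRBS files deposited by the authors list each cytosine with a methylation percent and, in 2 further columns, counts of methylated and of unmethylated reads, in the layout of Bismark. The submitters' processing notes name Trim Galore 0.3.5 and Bismark 0.12.3. Handling of duplicate reads and of reads with several matches was not found in the sources read here, which leave out the study's supplemental procedures. Positions past the end of chromosome 1 in GRCm38 place the files on NCBIM37. RNA-seq and ChIP-seq tables, on GRCm38, were not used, and the UHRF1 WT serum replicate 2 file, which holds almost no positions, was left out. No per-sample column was left unused. Members and lists were chosen with earlier results of these data known.

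Levels were pooled calls per library for ChIP-BS and the mean of position percents for RRBS (at least 5 calls in every sample). Depth was 16714950 to 24326272 autosomal calls a library. Sample-level tests were exact permutations, and the RRBS time trend used 100000 permutations. Clusters (gap up to 1000 bp) and 10000-bp windows with at least 20 calls in every library entered a quasi-binomial logistic model of methylated and unmethylated calls on the 4 groups, with dispersion moderated by limma 3.58.1 (R 4.3.3; trend on depth, not below 1), and Benjamini-Hochberg adjustment over all 175697 features. The model was also run on simulated data, and the outcome of that run is not given here. Alternatives varied the call threshold, averaging, cluster gap, dispersion, test and libraries. Named clusters were the 10 with the most Input calls, the 3 highest and 3 lowest kept shares among clusters of 3 or more positions, the 3 largest called differences between bound DNA and Input in each medium, and chromosomes with at least 5% of members; other clusters and single positions were named after their values were seen.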

Additional observations from a re-analysis of the deposited data

Results flagged for a closer look

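At chr15:74916119-74917197 the difference between bound DNA and Input was 14.8 points in serum and -3.63 points in 2i, a change of -18.4 points between the media (adjusted p = 0.0390 by the quasi-binomial model, 0.842 by limma). It stands here because the same contrast differed between the 2 media by a test of the difference itself. That call was not stable. For this change no cluster was called with a 20-point minimum or by limma. With 50 calls, wider gaps or the replicate block 1 was called, and with a common dispersion 5. The call also depended on single libraries, as described above. Bound calls rose from 418 and 536 to 4126 and 3132 at the same cluster, and their part in the change was not tested. At its 1 position with RRBS coverage, methylation was 33.7% in E14 serum. After 24 h in 2i it was 35.4%, after 48 h 26.2%, after 72 h 11.2%, after 96 h 16.5% and after 168 h 5.81%. The serum level was 72.6% for UHRF1 WT cells and 39.4% for the matching KO, and TET WT and TKO cells held 35.3% and 38.4% there.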

How the results depend on the processing

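The mean difference of members from other positions was 7.25 points with equal weight per position, -6.23 as medians over clusters and windows, 10.4 without members of more than 1000 calls in any Input and -9.82 without the 8 deepest clusters (an alternative chosen after seeing the data). The difference in loss turned to -0.804 with those medians. Bound minus Input at members turned to -1.37 without members of more than 1000 calls, and its contrast with other positions to 0.786 without the 8 deepest clusters, both in pooled calls; equal weight per position did not turn the contrast. 2i minus serum at members ran from -12.05 to -43.4 points over these choices, which change the clusters that carry the weight. Thresholds of 10 or 50 calls, more than 20 calls in all 8 libraries, leaving out the deepest cluster or chromosome 2, and deeper-covered other positions kept the direction of the 5 level comparisons; the bound contrast was -3.27 with the last. 4 of the comparisons cannot pass 0.05 under any setting. Members minus others stayed past it under those thresholds and exclusions and with deeper-covered other positions. With medians, and without the 8 deepest clusters, it passed in the opposite direction. It did not pass with equal weight per position or without members of more than 1000 calls in any Input. The replicate block gave the same 4 means, such as 1.07 points for bound minus Input at members, with an exact permutation p of 0.125, the smallest that 4 pairs allow; members minus others, taken within each library, could not be blocked.

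Leaving out 1 library in turn gave 15.4 to 20.4 points for members minus others, 0.933 to 1.21 for bound minus Input at members, -12.2 to -11.9 for 2i minus serum, 28.2 to 28.7 for the difference in loss and -6.22 to -5.81 for the bound contrast. Called clusters ranged from 1 to 8 for bound minus Input in serum, 0 to 3 in 2i, 159 to 165 and 162 to 168 for the medium in Input and bound DNA, and 0 to 1 for the change of the difference. RRBS values were -0.939 to -0.907 for r in E14, -28.7 to -25.9 points in UHRF1 and -1.31 to 1.18 points in TET, which also turned to 2.61 with pooled calls. The UHRF1 value of -28.7, without replicate 1, lacked serum, where UHRF1 WT had 1 usable sample. The TET value of 1.18, also without replicate 1, lacked 168 h, where TET WT had 1 sample. Both values thus cover fewer times than the main ones. RRBS with the replicate block gave -27.2 points in UHRF1 and -0.239 in TET.

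For bound minus Input in serum, in 2i and the change, clusters called were 0, 1 and 0 with a 20-point minimum, 11, 6 and 5 with a common dispersion, and 0, 0 and 0 with limma (14, 19 and 5 at an unadjusted p under 0.05). With gaps of 10000 bp 1 was called in 2i, and for the medium 89 of 99 clusters in each fraction. With 50 calls 77 and 79 of 79 were called, fewer because fewer clusters were tested. With the replicate block in the cluster model 1 was called in 2i. Whether equal replicate numbers mark a pairing was not settled. Replicate differences of groups compared correlated by -0.00547 to 0.00325 over 175514 windows. Windows could hold as few as 20 calls a library, so noise from read counts could hide a pairing. Depth limits the 69 clusters under 20 calls in some library, which were not tested.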
